A study of Mus musculus with 6 samples.

Results

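Prelid2 and its relatives encode the PRELI-domain proteins, a small family of phospholipid carriers that work with the partner protein Triap1, and 5 genes make up the group described here: Prelid1, Prelid2, Prelid3a, Prelid3b and Triap1. They are 5 of the 19937 genes that had a probe set naming them alone, and they were read by 6 of 34760 probe sets, with a pair of sets for Prelid1 and 1 set for each of the others. Members were taken by gene symbol from the platform's annotation. Prelid2 was selected on its log2 change in the comparison below, where it was among the largest increases, and the others were chosen by family. Their changes in this comparison are therefore given as a description, with an interval but without a test.

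The arrays measured RNA from 230-238, a mouse B-cell line. For 3 arrays the cells were infected with a plasmid for the marker GFP (green fluorescent protein), and for the other 3 with a plasmid for both GFP and FOG1, a cofactor of GATA transcription factors that is encoded by Zfpm1. Both groups were cultured for 3 days, sorted for GFP fluorescence and cultured for 4 more days, so all cells compared carried a plasmid and had passed a sort. The comparison asks which transcripts differ when this B-cell line is given FOG1. It rests on a single cell line that already gave a Zfpm1 signal without the FOG1 plasmid. The sample titles call the arrays of each group biological replicates, but the labels do not say whether these were infected separately. The errors below therefore measure the spread between these samples, which may be technical.

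PRELI-domain proteins carry phospholipids across the space between the outer and inner mitochondrial membranes, and most are known to do so in a complex with Triap1, which keeps them stable. Prelid1 with Triap1 delivers phosphatidic acid to the inner membrane, where it is the starting material for cardiolipin, the signature lipid of that membrane. Prelid3b with Triap1 delivers phosphatidylserine, which is turned into phosphatidylethanolamine there. Prelid3a is a close relative of Prelid3b, and the cargo of Prelid2 is less well defined.

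Every array went with its label and gave B-lineage signal, and stromal markers gave signal too. Zfpm1 signals were 9.41 to 9.49 on the GFP arrays and 10.16 to 10.21 on the FOG1 arrays. The 9 measured B-lineage markers, among them Cd79a, Pax5 and Igll1, had mean log2 signals of 9.83 to 13.09 in GFP cells, above the median of all values, 7.00. Their log2 signals summed to between 105.7 and 106.2 on the GFP arrays and between 104.7 and 105.4 on the FOG1 arrays, so the sums did not overlap and were lower with FOG1. The groups stood apart for 3 of the 9, Cd79a (-0.41), Ms4a1 (-0.34) and Cd79b (-0.16), against 20.8% of all genes in either direction. None of the 3 passed (limma adjusted p = 0.088, 0.16 and 0.25). The part of the lower B-lineage sums in the change of Prelid2 was not tested. Of 16 measured markers of T cells, myeloid cells, erythroid cells, mast cells and megakaryocytes, 2 reached that median. The 3 stromal markers Col1a1, Col3a1 and Pdgfrb all reached it, with mean log2 signals of 7.94 to 9.65 in GFP cells. The source of this signal was not tested. Each was highest on FOG1 replicate 1 and lowest on FOG1 replicate 3. Their log2 signals summed to between 25.7 and 26.4 on the GFP arrays and between 24.3 and 27.0 on the FOG1 arrays, so the groups overlapped.

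Prelid2 was the one member that differed widely between the groups. Its log2 signals were 7.45, 7.32 and 7.25 on the GFP arrays and 8.47, 8.64 and 8.63 on the FOG1 arrays. All FOG1 arrays lay above all GFP arrays, with a gap of 1.03 between the nearest arrays of the groups (from unrounded values). The group means were 7.34 ± 0.10 and 8.58 ± 0.09 (SD, n = 3 each), a log2 change of 1.24 with a moderated standard error (SE) of 0.073 and a 95% interval of 1.07 to 1.42. The signal was thus 2.37-fold higher with FOG1. This was the 12th largest increase of 34760 probe sets and the 3rd largest of the 21640 with 1 gene symbol. FOG1 replicate 1 gave the lowest of the FOG1 values, and the groups' SDs were close to each other. In RNA from a whole culture, a difference in the share of cells that express a gene and a difference in RNA per cell cannot be told apart.

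**Figure D1:**
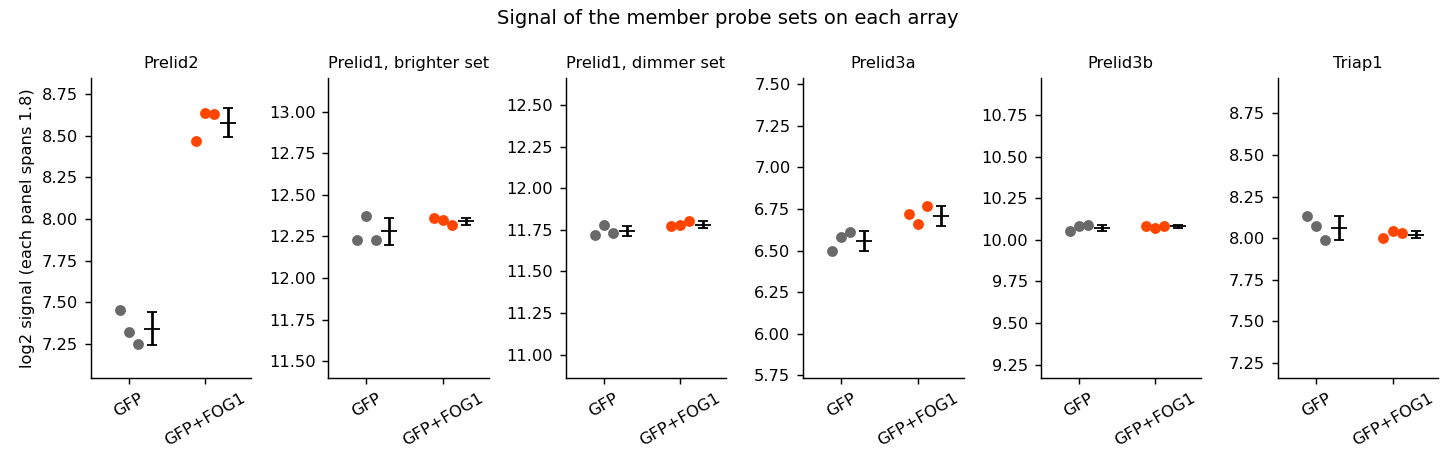
Log2 signal of each member probe set on each array, with GFP arrays in grey, GFP+FOG1 arrays in orange, and the group mean and SD beside the points (n = 3). Each panel has its own level and the same span, and only for Prelid2 and, by a narrow margin of 0.05, Prelid3a do the groups stand apart.

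Prelid1, the phosphatidic acid carrier, had overlapping groups at both of its probe sets. At the brighter set its log2 signals were 12.23, 12.37 and 12.23 on the GFP arrays and 12.36, 12.35 and 12.32 on the FOG1 arrays. The FOG1 values fell inside the range of the GFP values, and the log2 change was 0.07 (SE 0.055, 95% interval -0.06 to 0.20). At the other set the signals were 11.72, 11.78 and 11.73 against 11.77, 11.78 and 11.80, with a log2 change of 0.04 (SE 0.043, 95% interval -0.06 to 0.14). The annotation gives both sets the same accessions, and which transcripts each one reads beyond these is not given.

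Triap1, the partner that the carriers share, did not follow Prelid2. Its log2 signals were 8.13, 8.07 and 7.99 on the GFP arrays and 8.00, 8.04 and 8.03 on the FOG1 arrays. The FOG1 values lay inside the GFP range. The log2 change was -0.04 (SE 0.050), and its 95% interval, -0.16 to 0.08, leaves room for a small change in either direction.

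Prelid3b, the phosphatidylserine carrier, was the steadiest member, with a range of 0.04 over all 6 arrays. Its log2 signals were 10.05, 10.08 and 10.09 on the GFP arrays and 10.08, 10.07 and 10.08 on the FOG1 arrays. The log2 change was 0.01 (SE 0.041, 95% interval -0.09 to 0.10), and it turned to -0.02 after quantile normalization.

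Prelid3a, its close relative, was the dimmest member and lay below the median of all values, where background can form part of a signal and a change can be understated. Its log2 signals were 6.50, 6.58 and 6.61 on the GFP arrays and 6.72, 6.66 and 6.77 on the FOG1 arrays. The groups did not overlap, but the nearest arrays were only 0.05 apart. The log2 change was 0.15 (SE 0.054, 95% interval 0.02 to 0.28), or 1.11-fold.

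**Figure D2:**
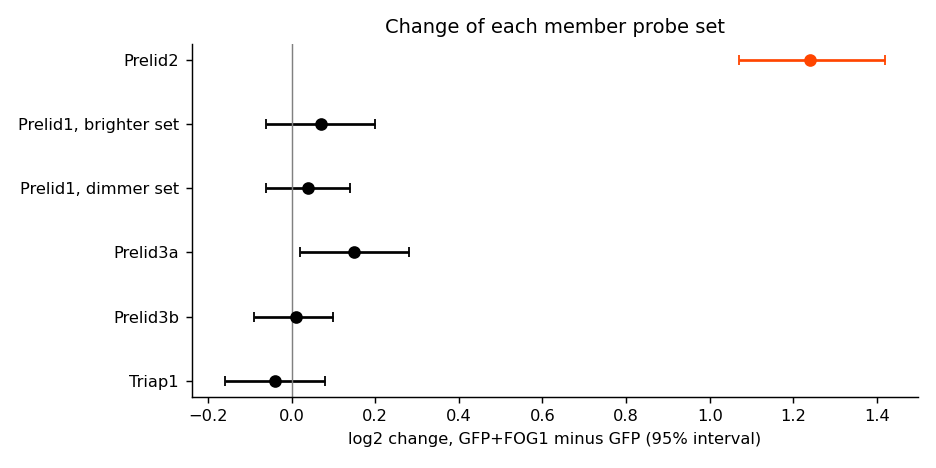
Log2 change of each member probe set, GFP+FOG1 minus GFP, with its 95% interval from the limma fit over all probe sets. The interval of Prelid2 starts at 1.07, and the highest upper bound among the other 5 sets is the 0.28 of Prelid3a.

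Across the group, 1 of 6 member probe sets passed an adjusted p of 0.05 (limma with Benjamini-Hochberg adjustment over all probe sets), that of Prelid2, where 0.224% of all probe sets passed. The groups stood apart at 2 of the 6, both higher with FOG1, against 19.6% of all probe sets in either direction and 9.13% in that one. Of all probe sets, 0.104% passed as higher and 0.121% as lower. Since this contrast brought Prelid2 forward, nothing is read from these counts. The 4 other genes had log2 changes of -0.04 to 0.15, and all probe sets together had a median of -0.01. The total of 78 passing probe sets was smaller when an array was left out: 20, 21 and 21 without GFP replicates 1, 2 and 3, and 38, 17 and 28 without FOG1 replicates 1, 2 and 3.

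The measured genes of phospholipid synthesis and transport, of the mitochondrial machinery around the carriers and of the p53 response did not pass the threshold. Of 111 entries on these 9 lists, 103 genes had a probe set of their own, and 0 rose and 0 fell in the limma fit, where 0.161% of all genes at their brightest probe set passed. An unadjusted p under 0.05 was reached by 9 of the 103 (8.74%), against 11.0% of all 19937 genes. The groups stood apart for 23 of them (22.3%), against 20.8% of all genes. The median log2 change was 0.01, and the largest change in size was 0.29, a decrease of the p53 target Eda2r. Its groups overlapped, with log2 signals of 6.74, 6.91 and 7.12 on the GFP arrays and 6.97, 6.67 and 6.24 on the FOG1 arrays.

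The other carriers with a PRELI domain, Sec14l1 and Sec14l5, had overlapping groups. Sec14l1 had log2 signals of 8.61, 8.55 and 8.57 on the GFP arrays and 8.63, 8.55 and 8.54 on the FOG1 arrays. Sec14l5 was dim, with group means of 5.56 in both groups, and both genes had a limma adjusted p of 0.98.

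Cardiolipin genes, downstream of the phosphatidic acid that Prelid1 delivers, had a median log2 change of -0.02 over 12 genes, 5 positive and 7 negative, and 0 passed. The smallest p values belonged to Pld6, a mitochondrial phospholipase that acts on cardiolipin, at 0.13 (limma adjusted p = 0.42), to the phospholipase gene Pla2g6 at -0.11 (0.50), and to Pgs1, the enzyme that commits lipid to the cardiolipin pathway, at -0.06 (0.60). The enzymes that supply phosphatidic acid and its activated form had a median of -0.01 over 17 genes, 8 positive and 9 negative, and 0 passed. Agpat5, an acyltransferase that makes phosphatidic acid, had log2 signals of 8.52, 8.43 and 8.39 on the GFP arrays and 8.62, 8.60 and 8.63 on the FOG1 arrays. Its groups stood apart by a small margin, and its log2 change of 0.17 did not pass (limma adjusted p = 0.29). The related genes Agpat3 and Gpat3 were at -0.10 (0.44) and -0.13 (0.48).

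Phosphatidylserine and phosphatidylethanolamine genes, which stand before and after the step served by Prelid3b, had a median log2 change of -0.02 over 8 genes, 3 positive and 5 negative, and 0 passed. Ptdss1, which makes phosphatidylserine, was at 0.06 (limma adjusted p = 0.61), and Pisd, the inner-membrane decarboxylase that converts it, was at -0.08 (0.60). Cept1, of the parallel route in the endoplasmic reticulum, was at 0.11 (0.46). Under median centring the medians of these lipid synthesis lists were 0.01 to 0.02, so their sign is not settled.

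Other lipid carriers and contact-site proteins had a median log2 change of 0.05 over 17 genes, of which 13 were positive, where 45.8% of all genes were positive. After median centring 15 of the 17 were positive, where 56.9% of all genes were. None passed, and 2 had an unadjusted p under 0.05 (limma). Rmdn3, a mitochondrial anchor of contacts with the endoplasmic reticulum, had log2 signals of 9.01, 9.11 and 9.08 on the GFP arrays and 9.32, 9.19 and 9.35 on the FOG1 arrays. The groups did not overlap, and the log2 change of 0.22 had a limma adjusted p of 0.26. Cert1, the ceramide carrier, was at 0.11 (0.40), and Osbpl8, a carrier that exchanges phosphatidylserine, at 0.13 (0.43).

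Mitochondrial proteins around the carriers also stayed below the threshold. Proteases and prohibitins of the inner membrane had a median log2 change of 0.04 over 9 genes, 6 positive and 3 negative, and 0 passed. After median centring 8 of the 9 were positive, where 56.9% of all genes were. Yme1l1, the protease known to degrade Prelid1 that is not bound to Triap1, had log2 signals of 10.73, 10.70 and 10.81 on the GFP arrays and 10.86, 10.88 and 10.94 on the FOG1 arrays. All FOG1 values were the higher ones, by a log2 change of 0.15 that did not pass (limma adjusted p = 0.35). Stoml2, a cardiolipin-binding scaffold protein, was also at 0.15 (0.46), and the stress-activated protease gene Oma1 at 0.12 (0.54).

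Genes of the MICOS complex, which shapes the folds of the inner membrane, had a median log2 change of 0.06 over 10 genes, of which 8 were positive and 0 passed. The groups stood apart for 5 of them, all higher with FOG1. Of all genes, 45.8% were positive and 20.8% had groups apart in either direction. Of all probe sets, 9.13% had groups apart and higher with FOG1. After quantile normalization 6 of the 10 were positive, against 49.1% of all genes, and after median centring 9, against 56.9%. Immt, its core subunit, was at 0.11, Samm50, of the outer-membrane sorting machinery bound to it, also at 0.11 and the subunit gene Apool at 0.12, with a limma adjusted p of 0.40, 0.40 and 0.43.

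Triap1 belongs to the small proteins with paired cysteine motifs that are imported through the disulfide relay of the intermembrane space, and it is also a target of p53. The list of such proteins and of the relay had a median log2 change of 0.01 over 18 genes, 10 positive and 8 negative, and 0 passed. After median centring 14 of the 18 were positive, where 56.9% of all genes were. Chchd4, the import receptor of the relay, was at 0.19 (limma adjusted p = 0.37), the cytochrome oxidase assembly gene Cmc2 at 0.12 (0.35) and Ndufs5, a subunit of respiratory complex I, at -0.17 (0.28). The other p53 genes had a median of -0.03 over 10 genes, 4 positive and 6 negative, and 0 passed. Cdkn1a, Bax and Trp53 itself were listed but had no probe set of their own, so they were not read. Zmat3 was at 0.17 (limma adjusted p = 0.40), Sesn2 at -0.17 (0.52) and the dim Eda2r at -0.29 (0.56).

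**Figure D3:**
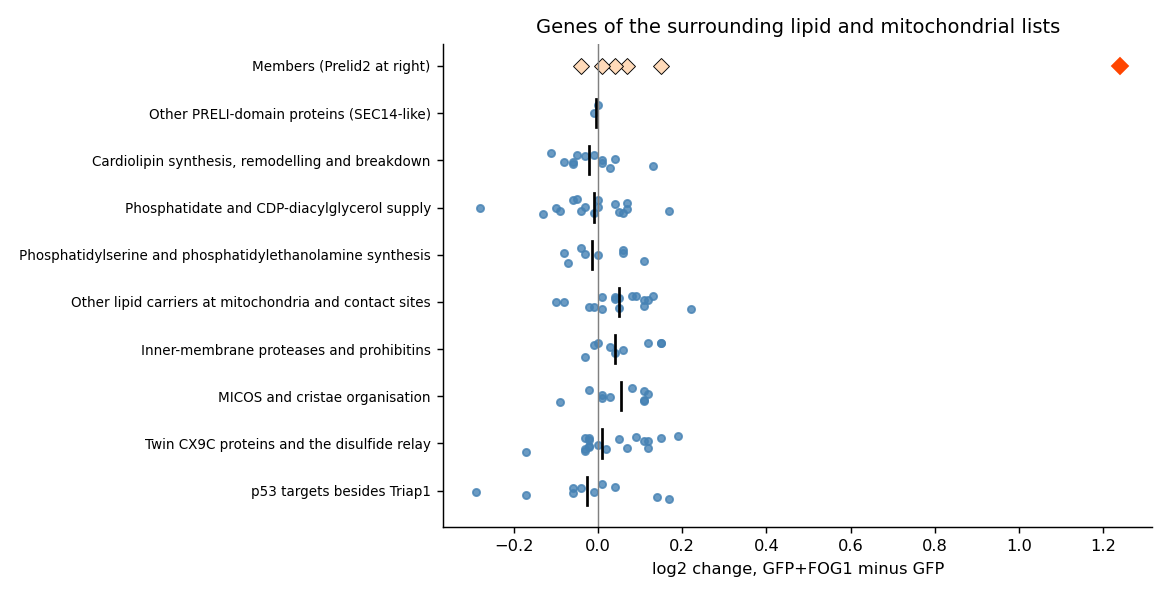
Log2 change, GFP+FOG1 minus GFP, of the members (diamonds) and of each gene on the 9 lists (blue points, black bar at the list median). All 103 list genes lie within 0.29 of 0 in either direction, and Prelid2 lies at 1.24.

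The genes beside Prelid2 on chromosome 18 were examined next, with gene order taken from RefSeq genes of assembly GRCm38.p6. Protein-coding genes with only a numbered Gm or LOC name were left out. The 5 nearest others on each side were all measured, had log2 changes of -0.09 to 0.21, and 0 of the 10 passed (limma adjusted p = 0.31 to 0.99). The nearest of these were Kctd16, of the auxiliary subunits of GABA-B receptors, at 0.13 (0.63), and Grxcr2, a gene of the hair-cell bundle, at 0.01 (0.95). Both lay below the median signal. Lars, the cytosolic leucyl-tRNA synthetase gene, had log2 signals of 9.66, 9.78 and 9.77 on the GFP arrays and 9.85, 9.95 and 10.05 on the FOG1 arrays. This was the largest of the 10 changes, 0.21, with a limma adjusted p of 0.31. The groups stood apart for 3 of the 10, Lars and Rbm27 higher and Fgf1 lower with FOG1, against 20.8% of all genes in either direction.

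The other neighbours were nearer to 0 than Lars. Nr3c1, the glucocorticoid receptor gene, was at 0.01 (limma adjusted p = 0.94), the Golgi membrane gene Yipf5 at 0.06 (0.63) and the RNA-binding gene Rbm27 at 0.09 (0.46). The growth factor gene Fgf1 was at -0.09 (0.47), Pabpc2 at 0.13 (0.68), Sh3rf2 at -0.04 (0.80) and Plac8l1 at 0.00 (0.99), and these 4 were below the median signal. Prelid3a lies on the same chromosome and shared none of these neighbours, while Prelid1, Prelid3b and Triap1 lie on chromosomes 13, 2 and 5. Over all 5 members, 45 of 50 neighbours were measured and 0 passed, with 4 at an unadjusted p under 0.05 (limma), a level reached by 11.0% of all genes.

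**Figure D4:**
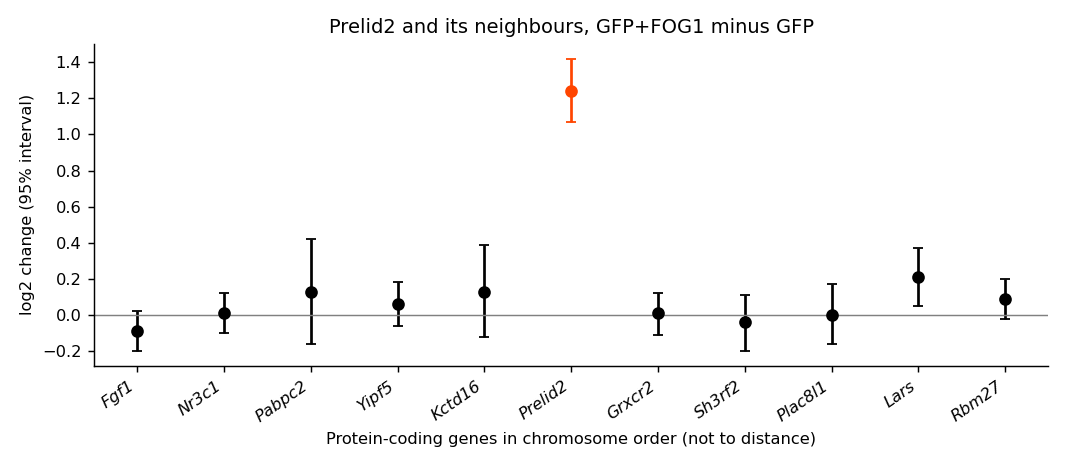
Log2 change with 95% interval of Prelid2 (orange) and of the 5 nearest protein-coding genes on each side, numbered Gm and LOC names left out, in chromosome order and not to distance. The neighbours run from -0.09 to 0.21, and Prelid2 lies at 1.24.

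Genes with the profile most like that of Prelid2 were found by the root mean square distance, over the 6 arrays, between log2 signals taken relative to each gene's GFP mean. The nearest were Ifi208 at a distance of 0.18, Ifi206 at 0.19, Ccdc115 at 0.27, Tmc7 at 0.32 and Ighm at 0.34, against a median of 0.89 over all probe sets and 0.78 to 0.91 for the other member sets. A small distance here mostly picks genes with a similar difference between the groups, so their changes are given without a test. Ifi208, of the interferon-inducible PYHIN family, had log2 signals of 6.03, 5.62 and 5.92 on the GFP arrays and 6.68, 7.09 and 7.28 on the FOG1 arrays. Ifi206, of the same family, had 5.91, 5.82 and 5.71 against 6.55, 6.97 and 7.32. Both were dim in GFP cells, with FOG1 SDs of 0.31 and 0.39 against 0.09 for Prelid2, and close relatives in this family can share probe signal.

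Ccdc115, an assembly factor of the vacuolar proton pump, had log2 signals of 7.77, 7.64 and 7.46 on the GFP arrays and 8.58, 8.49 and 8.47 on the FOG1 arrays. Tmc7, of the transmembrane channel-like family, had 8.14, 8.12 and 8.00 against 8.81, 8.89 and 8.95. Their log2 changes, 0.89 and 0.80, were smaller than that of Prelid2, and their group SDs were 0.06 to 0.16. Ighm, the immunoglobulin mu heavy chain gene, was dim and varied widely at the probe set used, with means of 5.75 ± 0.41 and 6.69 ± 0.29 (SD, n = 3 each). None of the 5 is known as a mitochondrial lipid carrier.

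**Figure D5:**
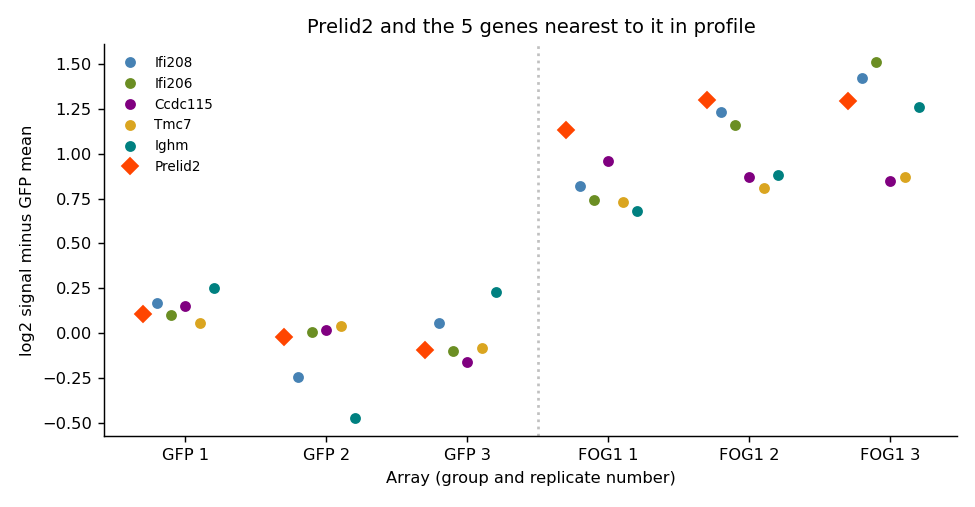
Log2 signal relative to the gene's GFP mean on each array, for Prelid2 (diamonds) and the 5 genes with the nearest profiles (circles). Prelid2, Ccdc115 and Tmc7 are level over the FOG1 arrays, while Ifi208 and Ifi206 spread more widely there.

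Promoter sequences, from 250 bases before to 50 after the gene start, were held by the RefSeq table of GRCm38.p6 for 3 members, Prelid1, Prelid3b and Triap1, and Prelid2 and Prelid3a were not analysed here. They were searched on both strands for AGATAA or its variant AGATAG, and for TGATAA or its variant TGATAG, which are forms of the site that GATA factors bind. None of the 3 held a match, while 29.8% of 32851 promoters of the same length did. This says only that these letters are not in these windows.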

How the data were processed

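RNA (100 ng per sample) was amplified with a whole-transcript kit and hybridised to Affymetrix arrays, per the labels' protocols. The values are log2 signals as deposited by the authors, 1 per probe set and array. Of their processing only the affy package is known, per the submitters' processing notes. Background correction, array normalization and the summary of probes are each not given in the sources used here. That the scale is log2 follows from the range of values (3.12 to 14.07, array medians 6.98 to 7.04). Arrays correlated at 0.9925 to 0.9960, and no pair was identical. If arrays were forced to one distribution, a shift common to most genes would not be seen, so changes are relative to the other probe sets. The number of arrays, 3 per group, limits the precision.

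Genes were named through the platform annotation: 21640 probe sets had 1 symbol, 1321 several (none of them a member) and 11799 none here. The comparison used limma 3.58.1 (R 4.3.3) with lmFit and eBayes, no block and no filter, with p-values adjusted by Benjamini-Hochberg over all probe sets and a threshold of 0.05. In the report, a lone number in parentheses after a log2 change is the limma adjusted p. For lists and neighbours a gene was read at its brightest 1-symbol probe set, and no set test was run. For the nearest profiles a gene was read at its 1-symbol probe set nearest to Prelid2, whatever its brightness. Before use, the model was tested on simulated data in which the changes were known. It recovered 50.1% of 1.41-fold changes, 84.8% of 2-fold changes and 97% of 4-fold changes. Of the probe sets that passed there, 5% were false. The simulated probe sets varied independently of each other, and 200 of 34760 were changed in each of 5 runs. These rates therefore describe the simulated data and are not error rates of the real arrays. Changes as small as those of the list genes were not simulated, so a list gene that did not pass may still have changed a little.

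Named were all members, up to 3 genes per list with the smallest p, all measured neighbours of Prelid2 and the 5 nearest profiles. The members and lists were chosen with earlier results of these data known. Deviations from the group mean correlated at -0.07, 0.01 and -0.04 between arrays of the same number, so numbers were not taken to pair samples. Figures were drawn with matplotlib 3.10.9.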

Additional observations from a re-analysis of the deposited data

How the results depend on the processing

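The change of Prelid2 was 1.20 to 1.30 under every alternative run for it (quantile normalization, median centring, leaving out dim probe sets, testing 1-symbol probe sets alone, array weights, a robust fit with a variance trend, the replicate block and leaving out each array). With the replicate block 9 probe sets passed in place of 78, Prelid2 was not among them, and the cause was not tested. The count was 17 to 38 without 1 array, where fewer samples are one reason, and 20 at an adjusted p under 0.01. In the other 6 settings it was within 1.5 times of 78. Prelid1 stayed positive at both probe sets (0.02 to 0.11), as did Prelid3a (0.12 to 0.18), and Triap1 stayed negative (-0.07 to -0.01). Prelid3b was at 0.03 after median centring and -0.02 after quantile normalization, moves larger than its very small SD. None of these 4 genes passed in any refit. Prelid3a has no value without dim probe sets, since it is one of them. The count of passing genes was 0 on each of the 9 lists in all 14 alternatives run, also with the replicate block and with probe sets averaged per gene. A pseudocount was not run, since the values are already log2.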
